A study of Mus musculus with 16 samples.

Results

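The 10 genes described here belong to the canonical Wnt pathway of the developing mouse neocortex, namely the inhibitors *Nkd1*, *Sfrp1*, *Sfrp5* and *Dkk3*, the receptor *Lrp6*, the transducer *Ctnnb1*, the feedback target *Axin2* and the transcription factors *Lef1*, *Tcf7l1* and *Tcf7l2*, out of 53379 genes counted in each library. They were chosen by name as pathway members, and 2 of them, *Nkd1* and *Sfrp5*, were selected because their measured reads were lower in *Eed*-/- than in *Eed*+/+ astrocytes, so that their astrocyte values are given as a description without a test. The other 8 were tested in every comparison, and all 10 in neurons.

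The libraries were made from the neocortex of mice aged 4 postnatal days, labelled as strain CD1 and, by the study's methods, of a mixed C57BL/6 and CD1 background, that carried MADM cassettes (mosaic analysis with double markers) on chromosome 7, the chromosome of *Eed*; Cre-driven exchange between the homologous chromosomes there leaves sparse labelled cells of defined genotype. Green (GFP+) neocortical cells were sorted into astrocytes (lacZ+) and neurons (lacZ-) and sequenced after Smart-Seq v2 amplification of polyadenylated RNA. *Eed*+/+ cells came from MADM7-GT/TG;Emx1-cre;XGFAP-lacZ mice (5 astrocyte and 2 neuron libraries), and *Eed*-/- cells from mice with MADM7-GT/TG,Eed in combination with Emx1-cre and XGFAP-lacZ, in which the tissue around the labelled cells was heterozygous for *Eed* (5 astrocyte and 3 neuron libraries). In both genotypes Emx1-cre drives recombination in the dorsal telencephalic lineage, the human *GFAP* promoter drives the lacZ reporter on which the gate rests, and the green cells carry 2 paternal copies of chromosome 7. Males and females were both used without separation by sex; astrocyte replicates are described as coming from individual animals.

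Wnt ligands bind Frizzled receptors together with LRP5 or LRP6, which disables the complex of AXIN, APC and GSK3 that otherwise marks β-catenin for degradation. Stabilised β-catenin (*Ctnnb1*) enters the nucleus and acts with TCF and LEF factors on targets such as *Axin2*, *Lef1* and *Nkd1*, several of which feed back as inhibitors. In the cortex the pathway is known for its part in dorsal patterning, progenitor proliferation and glial development. EED belongs to the core of Polycomb repressive complex 2 (PRC2), which methylates lysine 27 of histone H3 and in mammals is found mainly at promoters rich in CpG dinucleotides.

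Because PRC2 is known from CpG-rich promoters, promoter sequences are shown for the selected pair *Nkd1* and *Sfrp5* and, for comparison, for the pathway target *Axin2*. They were taken from RefSeq on GRCm38.p6 and run from 250 bases before to 50 bases after an annotated start, 5′ to 3′ on the gene's strand, with every CG dinucleotide in capitals. *Nkd1* is shown from chr8:88527383-88527682 on the + strand, a start that lies inside the longer annotated gene, *Sfrp5* from chr19:42202203-42202502 on the − strand, and *Axin2* from chr11:108920099-108920398 on the + strand.
Nkd1: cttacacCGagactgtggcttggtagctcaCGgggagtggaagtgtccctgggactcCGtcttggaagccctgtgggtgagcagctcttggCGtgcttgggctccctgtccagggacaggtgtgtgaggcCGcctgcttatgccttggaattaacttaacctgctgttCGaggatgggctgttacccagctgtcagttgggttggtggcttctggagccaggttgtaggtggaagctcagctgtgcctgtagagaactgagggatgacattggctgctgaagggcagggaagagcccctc
Sfrp5: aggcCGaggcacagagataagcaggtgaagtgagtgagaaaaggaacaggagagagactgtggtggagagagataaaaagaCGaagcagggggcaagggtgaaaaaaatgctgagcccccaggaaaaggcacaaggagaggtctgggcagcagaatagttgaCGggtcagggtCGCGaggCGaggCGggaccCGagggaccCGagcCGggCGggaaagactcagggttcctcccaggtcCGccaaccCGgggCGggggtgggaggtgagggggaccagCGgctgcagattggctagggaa
Axin2: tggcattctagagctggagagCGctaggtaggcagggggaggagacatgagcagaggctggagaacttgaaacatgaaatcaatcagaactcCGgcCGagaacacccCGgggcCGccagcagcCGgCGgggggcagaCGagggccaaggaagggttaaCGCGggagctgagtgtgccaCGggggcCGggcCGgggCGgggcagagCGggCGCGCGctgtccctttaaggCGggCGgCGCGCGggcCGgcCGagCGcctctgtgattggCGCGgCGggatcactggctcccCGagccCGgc
The *Nkd1* window held 6 CG dinucleotides and 58.3% G or C, the *Sfrp5* window 15 and 61.3%, and the *Axin2* window 31 and 70.0%, beside a median of 7 CG dinucleotides and 52.7% over all 32851 promoters in the table. Fewer CG dinucleotides than in *Nkd1* were found in 43.6% of promoters, fewer than in *Sfrp5* in 65.4% and fewer than in *Axin2* in 89.4%. In CG dinucleotides the *Nkd1* window, at its internal start, thus lay just below and the *Sfrp5* window above the median of all promoters. The start of the longer annotated *Nkd1* gene had no window. The core letters bound by TCF and LEF factors were searched as CTTTGA and CTTTGT on both strands, which cannot overlap each other on the same strand. None of the 3 windows held either of them, whereas 31.2% of all promoters held at least 1, as did 3 of the 12 promoters listed for members (7 of the 10 members had an entry).

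On GRCm38 the genes span chr8:88521354-88594884 (*Nkd1*), chr8:23411502-23449632 (*Sfrp1*), chr19:42197971-42202252 (*Sfrp5*), chr7:112116017-112159057 (*Dkk3*), chr6:134446476-134566965 (*Lrp6*), chr9:120929216-120960507 (*Ctnnb1*), chr11:108920349-108950783 (*Axin2*), chr3:131110471-131224356 (*Lef1*), chr6:72626378-72789254 (*Tcf7l1*) and chr19:55741820-55933654 (*Tcf7l2*). Reads over all exons of a gene were counted. *Dkk3* is the member on chromosome 7, the chromosome of the MADM cassettes.

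The 15 labelled libraries held between 211736 and 3178529 reads in genes. Of these, 10 had at least 1000000 uniquely aligned reads and a unique alignment of at least 60%, called the read limits below. These are thresholds stated for other GFP+ libraries of the study, which also left out some libraries of this experiment by principal components or replicate correlation. Which ones is unknown, so the main values keep every labelled library. The 5 outside these limits were *Eed*+/+ astrocyte replicate 3, *Eed*-/- astrocyte replicates 1, 3 and 4 and *Eed*+/+ neuron replicate 2, so the *Eed*-/- astrocytes were represented by 2 deeper libraries and the *Eed*+/+ neurons by 1. Reads of *Eed* itself, which include parts of the gene outside the deletion and so check the labels only in part, ranged from 0 to 14.1 CPM (counts scaled to 1000000 gene reads per library) in *Eed*-/- and from 4.19 to 64.2 CPM in *Eed*+/+ astrocytes, and from 16.7 to 36.0 and from 67.7 to 75.7 CPM in the respective neurons.

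The labelled cell types were only in part borne out by marker genes. The 15 astrocyte markers summed to 7883 to 38686 CPM in *Eed*+/+ astrocytes and to 3856 to 37854 CPM in *Eed*-/- astrocytes, but also to 10376 to 23536 CPM in the libraries labelled neurons. Within the read limits the 6 astrocyte libraries, at 16889 to 38686 CPM, lay above the 4 neuron libraries, at 10376 to 15859 CPM, so that the overlap came from libraries outside the limits. The 15 neuron markers reached 1737 to 3582 CPM in the libraries labelled neurons, within the range of 201 to 4869 CPM of the astrocyte libraries, and *Syt1* was at 0 in both *Eed*+/+ neuron libraries. The word neurons below therefore stands for the lacZ- gate. Microglia markers summed to 15781 CPM in *Eed*-/- astrocyte replicate 1 and 2875 CPM in replicate 3, against 12.3 to 415 CPM in *Eed*+/+ astrocytes, and erythroid markers to 8829 and 11925 CPM in *Eed*-/- astrocyte replicates 1 and 4. Mural and meningeal fibroblast markers summed to 106 to 1713 CPM in *Eed*-/- astrocytes, highest in replicate 3, and to 25.3 to 152 CPM in *Eed*+/+ astrocytes. Oligodendrocyte lineage markers summed to 1501 to 6358 CPM in *Eed*+/+ and to 209 to 3927 CPM in *Eed*-/- astrocytes. In the respective libraries labelled neurons they reached 1298 to 3596 and 2840 to 4369 CPM. Endothelial markers, of interest because *Lef1* and *Axin2* are active in brain endothelium, did not exceed 54.4 CPM in any labelled library, and *Tek* was at 0 in all 4 groups. In such bulk libraries fewer cells of a type and less RNA per cell cannot be told apart.

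**Figure D1:**
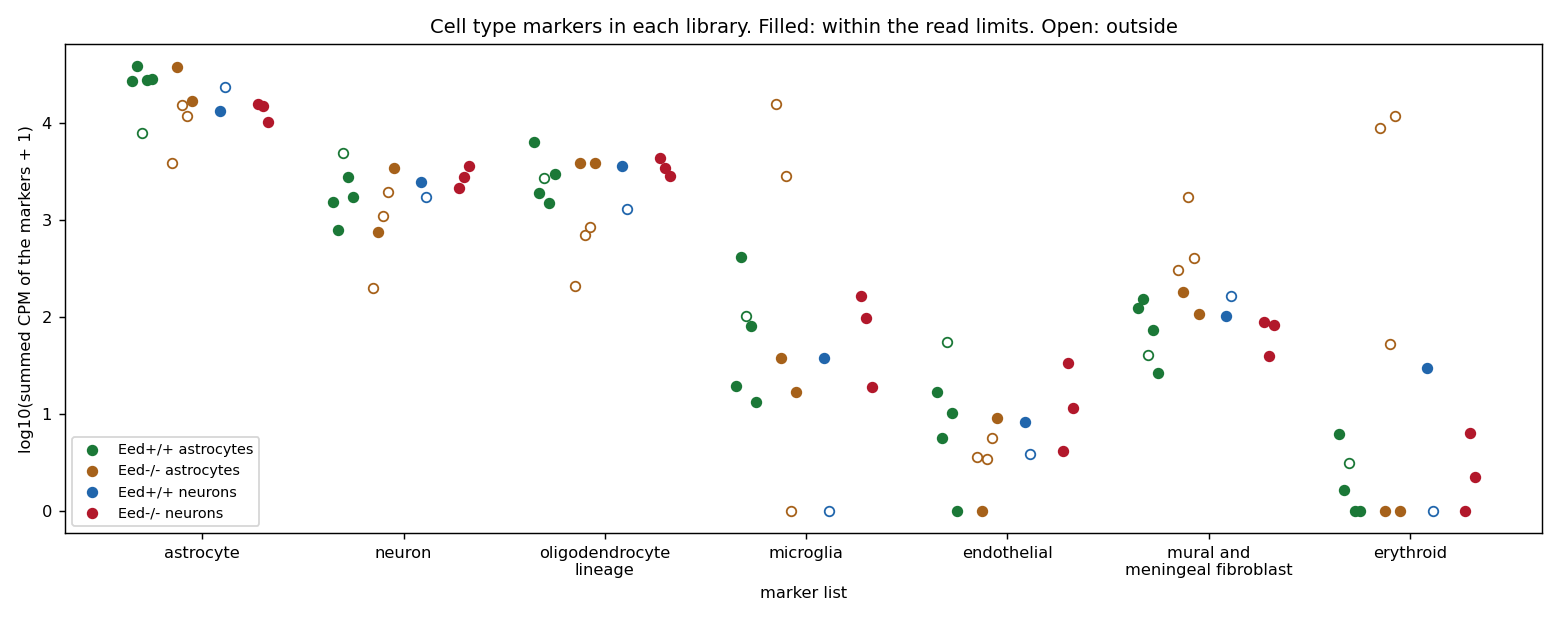
Summed CPM of 7 lists of cell type markers (log10 of CPM + 1, y axis) in each of the 15 labelled libraries, with filled points for libraries within the read limits and open points for those outside. Among filled points, astrocyte markers are higher in the astrocyte gate (16889 to 38686 CPM) than in the neuron gate (10376 to 15859 CPM), and the highest microglia and erythroid sums are open points of *Eed*-/- astrocytes.

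*Nkd1* encodes naked cuticle 1, a cytoplasmic inhibitor that binds Dishevelled and is itself a Wnt target. In *Eed*+/+ astrocytes, replicate 1 to replicate 5, it had 116, 250, 1, 190 and 69 reads, or 60.7, 93.3, 1.86, 87.6 and 47.8 CPM after scaling by the trimmed mean of M-values (TMM), and values below are given in the order of replicates as well. The 5 *Eed*-/- astrocyte libraries, in the same order, had 0, 10, 0, 0 and 3 reads, or 0, 6.65, 0, 0 and 3.03 TMM CPM. Every *Eed*+/+ astrocyte library but the shallow replicate 3 lay above every *Eed*-/- library, and replicate 3 lay within the range of the *Eed*-/- libraries. Summed over libraries, *Nkd1* took 626 of 9780680 gene reads in *Eed*+/+ and 13 of 3882808 in *Eed*-/- astrocytes, a 19.1-fold higher share, given as a description of the values that chose the gene. Within the read limits the ratio was 14.9, with 625 and 13 reads. Leaving out *Eed*-/- replicate 2, which held 10 of the 13 reads, gave 42.5, a description that rests on 3 reads. The 3 *Eed*-/- libraries without an *Nkd1* read could have missed a level of up to 5.08, 8.86 and 9.27 TMM CPM, the values of 3 reads there. These ratios leave out a library titled as an *Eed*-/- astrocyte but given the cell type of a neuron, which entered no group and alone held 327 *Nkd1* reads among 221456 gene reads, more than all labelled *Eed*-/- astrocyte libraries together.

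The selection did not use the neuron libraries, where the order of the groups for *Nkd1* was the opposite. *Eed*+/+ neurons had 46 and 8 reads (24.7 and 25.0 TMM CPM), and *Eed*-/- neuron replicates 1 to 3 had 111, 162 and 67 reads (86.8, 83.1 and 42.2 TMM CPM). All 3 *Eed*-/- neuron libraries lay above both *Eed*+/+ libraries. The log2 fold change was 1.41 ± 0.74 (SE, n = 3 and 2), which did not pass the threshold in edgeR's quasi-likelihood test (Benjamini-Hochberg adjusted p = 0.715), and its 95% interval ran from -0.19 to 3.00. The value stayed positive in all 15 fits of this comparison, between 1.25 and 1.71.

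*Sfrp5* encodes a secreted Frizzled-related protein, a soluble inhibitor that binds Wnt ligands. It had 42, 134, 0, 89 and 55 reads in the *Eed*+/+ astrocyte libraries (22.0, 50.0, 0, 41.1 and 38.1 TMM CPM) and not a single read in the 5 *Eed*-/- astrocyte libraries. The 4 *Eed*+/+ libraries within the limits lay above all *Eed*-/- libraries, and replicate 3 was at 0 as well. *Sfrp5* thus had 320 of 9780680 gene reads against 0 of 3882808. With each *Eed*-/- library set to its own level of 3 reads, the mean TMM CPM was at least 5.35-fold lower in *Eed*-/- astrocytes, and at least 15.03-fold lower within the read limits. Both are descriptions of the values that chose the gene.

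**Figure D2:**
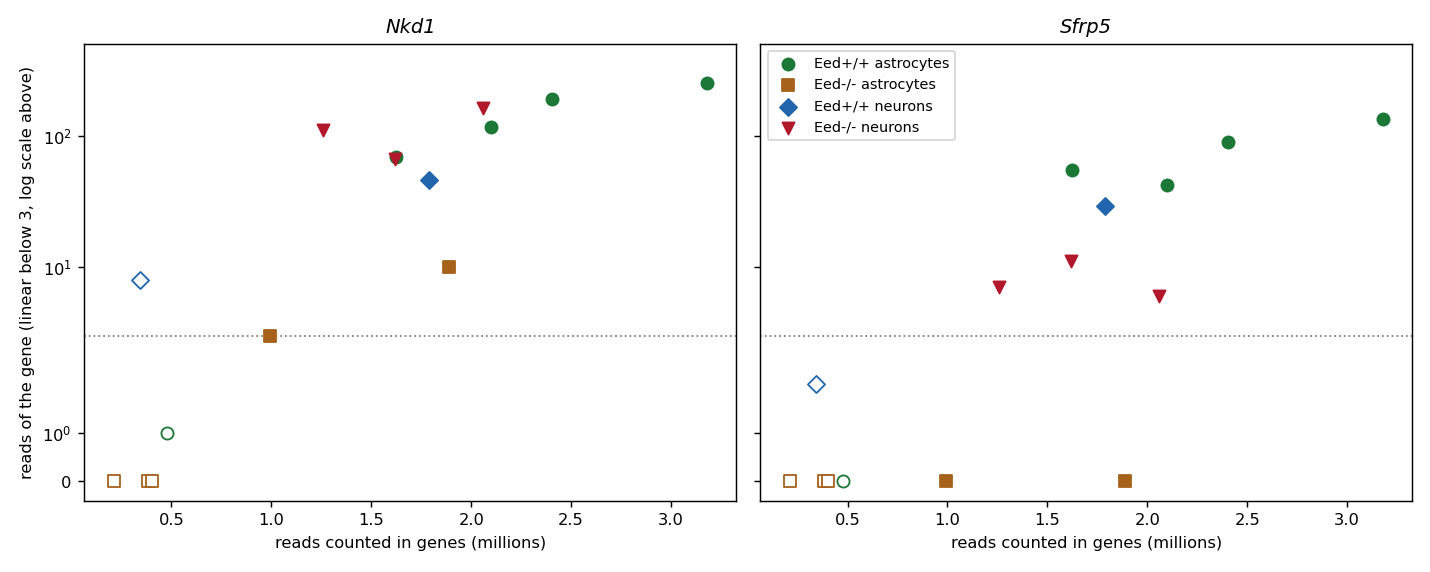
Reads of *Nkd1* and *Sfrp5* (y axis, linear below 3 and logarithmic above, dotted line at 3 reads) against the reads counted in genes in each labelled library (x axis, in units of 1000000 reads), with open symbols for libraries outside the read limits. The 2 deeper *Eed*-/- astrocyte libraries held 10 and 3 *Nkd1* reads and no *Sfrp5* read, while *Eed*+/+ astrocyte libraries within the limits held 69 to 250 and 42 to 134.

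In neurons *Sfrp5* was low in every library. *Eed*+/+ neurons had 29 and 2 reads (15.6 and 6.24 TMM CPM) and *Eed*-/- neurons 7, 6 and 11 reads (5.48, 3.08 and 6.92 TMM CPM). The groups overlapped, and the log2 fold change of -1.26 ± 0.99 (SE) did not pass the threshold in edgeR (adjusted p = 0.767).

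*Sfrp1*, the second Frizzled-related inhibitor among the members, was abundant. The *Eed*+/+ astrocyte libraries showed 453, 415, 228, 1048 and 328 TMM CPM, and the *Eed*-/- astrocyte libraries 249, 311, 230, 0 and 156 TMM CPM. Replicate 4 of the *Eed*+/+ group stood above all others, and the groups overlapped. Between them the log2 fold change was -1.31 ± 1.17 (SE, n = 5 and 5; edgeR adjusted p = 1.00), and -1.26 ± 0.55 within the read limits (edgeR adjusted p = 1.00). In neurons *Sfrp1* had 259 and 150 TMM CPM in *Eed*+/+ and 302, 458 and 599 TMM CPM in *Eed*-/- libraries. Here the groups did not overlap and the *Eed*-/- libraries were the higher ones, with a log2 fold change of 1.05 ± 0.66 (SE; edgeR adjusted p = 0.740).

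*Dkk3* encodes a secreted member of the Dickkopf family whose effect on Wnt signalling depends on context. It had 369, 713, 111, 539 and 402 TMM CPM in the *Eed*+/+ astrocyte libraries and 0, 1006, 162, 0 and 241 TMM CPM in the *Eed*-/- astrocyte libraries. The highest and the lowest values both came from *Eed*-/- astrocytes. The log2 fold change of -0.56 ± 1.15 (SE; edgeR adjusted p = 1.00) lay next to the median of all genes in this comparison (-0.54), and it was 0.31 ± 0.54 within the read limits. In neurons *Dkk3* had 185 and 18.7 TMM CPM in *Eed*+/+ and 261, 279 and 191 TMM CPM in *Eed*-/- libraries. The groups did not overlap, but the lowest *Eed*-/- value was close to the higher *Eed*+/+ value, and the log2 fold change of 1.16 ± 0.80 (SE; edgeR adjusted p = 0.758) became 0.37 ± 0.61 without the shallow *Eed*+/+ replicate 2, which had 6 *Dkk3* reads.

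**Figure D3:**
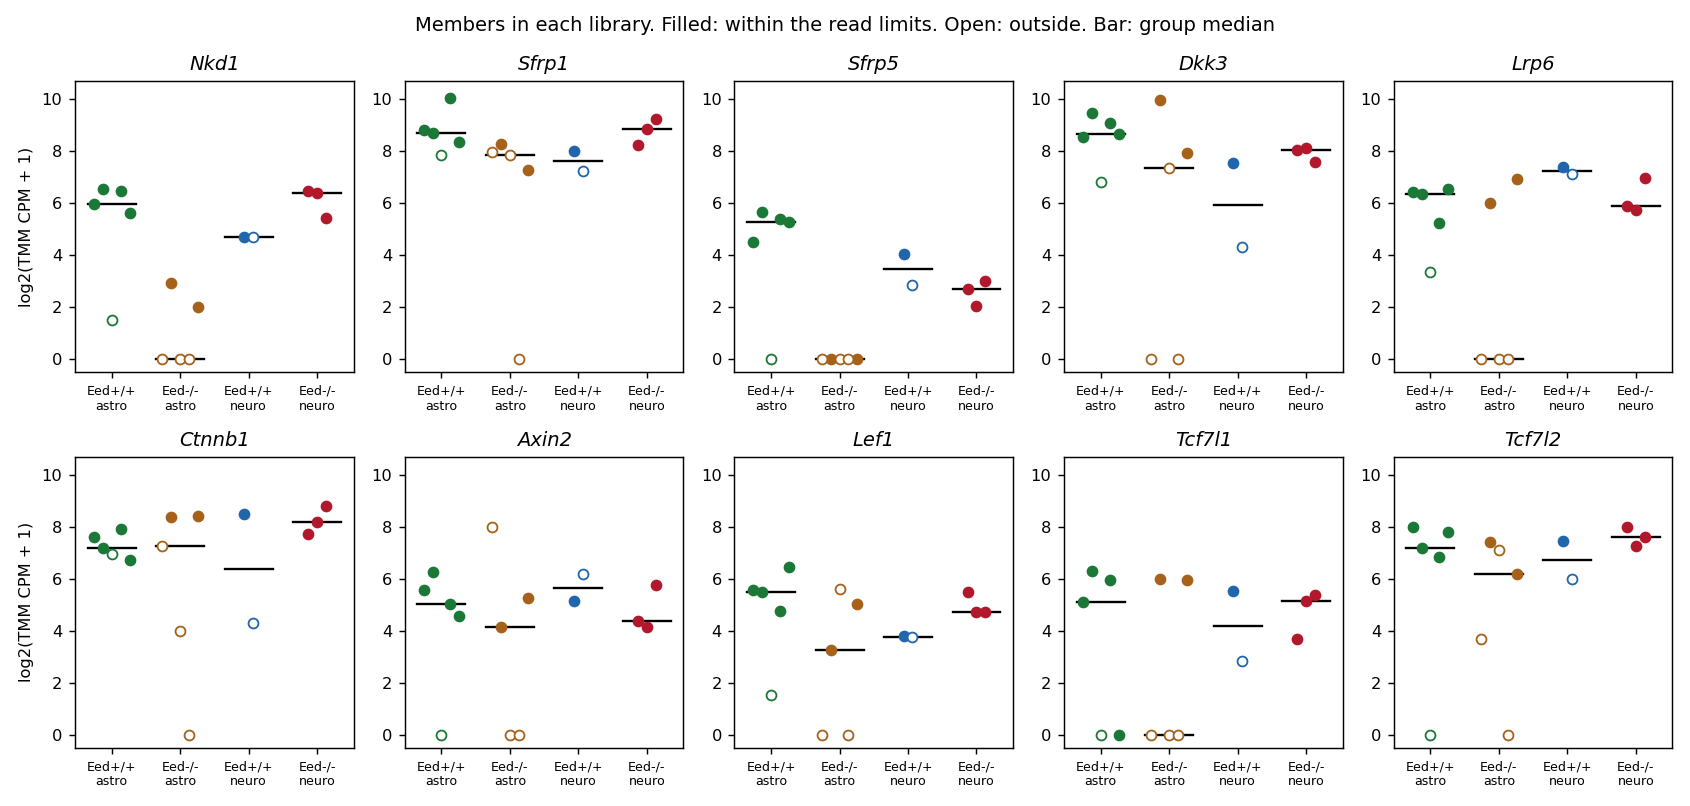
Level of each member (log2 of TMM CPM + 1, y axis) in each labelled library of the 4 groups (x axis), with filled points within the read limits, open points outside and bars at the group median. *Nkd1* lies at or below 6.65 TMM CPM and *Sfrp5* at 0 in all *Eed*-/- astrocyte libraries, and *Eed*+/+ astrocyte replicate 3, an open point, lies as low for both.

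*Lrp6*, the co-receptor that takes up the Wnt signal with Frizzled, had 85.3, 79.9, 9.28, 36.4 and 92.1 TMM CPM in *Eed*+/+ astrocyte replicates 1 to 5. Among *Eed*-/- astrocyte replicates it was at 0 in 1, 3 and 4, the 3 shallow ones, and at 63.8 and 122 TMM CPM in 2 and 5. The log2 fold change was -0.66 ± 1.50 (SE; edgeR adjusted p = 1.00) over all libraries and 0.35 ± 0.51 within the read limits, so that its sign rested on the shallow libraries. In neurons *Lrp6* was the 1 member whose *Eed*-/- libraries were all lower, at 57.9, 52.9 and 125 against 167 and 137 TMM CPM. Its log2 fold change of -1.06 ± 0.63 (SE) did not pass the threshold in edgeR (adjusted p = 0.739) and stayed negative in all 15 fits of this comparison.

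*Ctnnb1*, which encodes β-catenin, had 194, 145, 124, 242 and 106 TMM CPM in the *Eed*+/+ astrocyte libraries and 154, 333, 14.8, 0 and 342 TMM CPM in the *Eed*-/- astrocyte libraries. Both deeper *Eed*-/- libraries lay above all *Eed*+/+ libraries, and the shallow replicates 3 and 4 lay below them. Over all libraries the log2 fold change was 0.10 ± 1.27 (SE; edgeR adjusted p = 1.00). Within the read limits it was 0.98 ± 0.38 with an unadjusted p of 0.0282 and an adjusted p of 1.00 in edgeR. In neurons *Ctnnb1* had 359 and 18.7 TMM CPM in *Eed*+/+ and 214, 287 and 449 TMM CPM in *Eed*-/- libraries. The spread between the 2 *Eed*+/+ libraries exceeded that among the *Eed*-/- libraries, and the log2 fold change of 0.68 ± 0.89 (SE; edgeR adjusted p = 0.815) turned to -0.21 ± 0.60 without *Eed*+/+ replicate 2.

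*Axin2*, a scaffold of the degradation complex and a widely used readout of canonical Wnt signalling, had 47.1, 76.2, 0, 31.4 and 22.9 TMM CPM in the *Eed*+/+ astrocyte libraries and 252, 16.6, 0, 0 and 37.4 TMM CPM in the *Eed*-/- astrocyte libraries. *Eed*-/- replicate 1, with 149 of the 211 reads of its group, stood far above all other libraries. That library also had the highest microglia marker sum and astrocyte markers at 3856 CPM, the lowest of all labelled libraries, and the part of either in its *Axin2* value was not tested. With this library the log2 fold change was 0.91 ± 1.50 (SE; edgeR adjusted p = 1.00), -1.31 without it and -0.71 ± 0.77 within the read limits. In neurons *Axin2* had 34.3 and 71.8 TMM CPM in *Eed*+/+ and 19.6, 16.9 and 52.9 TMM CPM in *Eed*-/- libraries. The groups overlapped, and the log2 fold change of -0.94 ± 0.80 (SE; edgeR adjusted p = 0.771) shrank to -0.24 ± 0.79 without *Eed*+/+ replicate 2.

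*Lef1*, a β-catenin partner that is also a Wnt target, had 46.1, 44.1, 1.86, 25.8 and 85.9 TMM CPM in the *Eed*+/+ astrocyte libraries and 0, 8.64, 47.2, 0 and 31.4 TMM CPM in the *Eed*-/- astrocyte libraries. The groups overlapped, with a log2 fold change of -1.14 ± 1.60 (SE; edgeR adjusted p = 1.00) over all libraries and -1.33 ± 0.83 within the read limits. In neurons *Lef1* had 12.9 and 12.5 TMM CPM in *Eed*+/+ libraries, the second from 4 reads, and 43.8, 25.7 and 25.2 TMM CPM in *Eed*-/- libraries. All 3 *Eed*-/- libraries were higher, with a log2 fold change of 1.20 ± 0.83 (SE; edgeR adjusted p = 0.761) that stayed positive in all 15 fits.

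*Tcf7l1*, which acts mainly as a repressor, had 33.5, 77.6, 0, 60.4 and 0 TMM CPM in the *Eed*+/+ astrocyte libraries and 0, 63.2, 0, 0 and 60.7 TMM CPM in the *Eed*-/- astrocyte libraries. It was at 0 even in *Eed*+/+ replicate 5, a library within the limits. The log2 fold change was -0.41 ± 1.57 (SE; edgeR adjusted p = 1.00) in astrocytes and -0.0042 ± 0.83 (SE; edgeR adjusted p = 0.998) in neurons, where *Eed*+/+ libraries had 45.6 and 6.24 and *Eed*-/- libraries 11.7, 34.9 and 40.3 TMM CPM. *Tcf7l2*, the TCF factor known from postnatal glia and thalamic neurons, had 251, 145, 0, 113 and 222 TMM CPM in *Eed*+/+ and 11.8, 169, 136, 0 and 71.8 TMM CPM in *Eed*-/- astrocytes. Its groups overlapped in both cell types. Between genotypes the log2 fold change was -0.84 ± 1.35 (SE; edgeR adjusted p = 1.00) in astrocytes and 0.65 ± 0.66 (SE; edgeR adjusted p = 0.784) in neurons, where *Eed*+/+ libraries had 174 and 62.4 and *Eed*-/- libraries 257, 151 and 192 TMM CPM.

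Counted together, 0 of the 8 members open to a test differed between *Eed*-/- and *Eed*+/+ astrocytes at an adjusted p under 0.05 in edgeR, 0 of them at an unadjusted p under 0.05, and 0 in DESeq2 or limma-voom. Over all genes edgeR called 0 of 8956 (0%), with 108 at an unadjusted p under 0.05, and DESeq2 called 1. In neurons 0 of the 10 members were called by edgeR, by DESeq2 or by limma-voom, and 0 had an unadjusted p under 0.05 in edgeR, beside 0 of 11862 genes (0%) called by edgeR, 862 at an unadjusted p under 0.05 and 27 called by DESeq2. The intervals were wide: for the 8 members in astrocytes the SE ran from 1.15 to 1.60 on the log2 scale, so changes of several fold in either direction lie within them. The common biological coefficient of variation was 1.38 in the astrocyte comparison and 0.582 in the neuron comparison.

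Without overlap between the groups were 5 of the 10 members in neurons (*Nkd1*, *Sfrp1*, *Dkk3* and *Lef1* higher and *Lrp6* lower in *Eed*-/-), beside 23.3% of all 11862 genes tested there and, for the higher direction alone with 4 members, 15.6%. With 3 libraries against 2, 1 of them shallow, this is a description. Leaving out *Eed*+/+ replicate 1, the deep library of that pair, made edgeR call 2 members, *Dkk3* (log2 fold change 3.56, adjusted p = 0.0103) and *Ctnnb1* (3.93, adjusted p = 0.00818), beside 20.6% of the 12635 genes tested. That fit sets the *Eed*-/- libraries against the shallow control alone, which is assumed to vary like the *Eed*-/- libraries. Without the shallow replicate 2 the same values were 0.37 and -0.21.

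**Figure D4:**
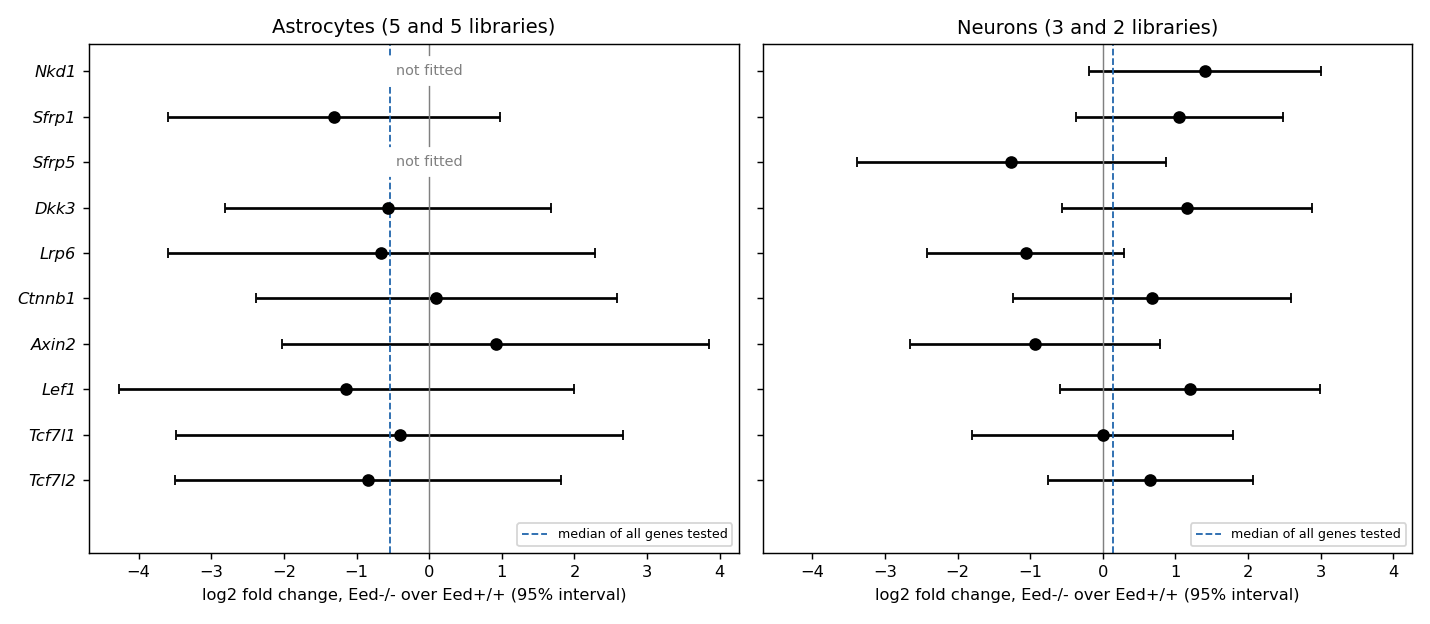
Log2 fold change of each member between *Eed*-/- and *Eed*+/+ cells (x axis) with its 95% interval from edgeR, in astrocytes (left) and neurons (right). The intervals of all members shown include 0, and *Nkd1* and *Sfrp5* did not pass the filter on low counts in the astrocyte comparison.

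The cell types were compared within each genotype in a fit over all 15 labelled libraries. Between *Eed*+/+ astrocytes and *Eed*+/+ neurons the log2 fold change was 2.05 for *Dkk3*, 1.67 for *Lef1*, 1.27 for *Sfrp1*, 0.38 for *Tcf7l1*, 0.30 for *Tcf7l2*, -0.23 for *Ctnnb1*, -0.58 for *Axin2* and -1.33 for *Lrp6*, with SEs between 1.41 and 2.03. None of the 8 passed the threshold in edgeR (adjusted p = 1.00 for each), where 1 of 13367 genes (0.00748%) did. Within the read limits *Ctnnb1* had a log2 fold change of -1.12 ± 0.49 (SE; edgeR unadjusted p = 0.0391, adjusted p = 1.00). *Lrp6* was the 1 member of the 10 without overlap, lower in all 5 astrocyte libraries than in both neuron libraries, as were 9.29% of the 13367 genes. Between *Eed*-/- astrocytes and *Eed*-/- neurons the log2 fold change was 1.06 for *Axin2*, 0.21 for *Dkk3*, -0.20 for *Tcf7l1*, -0.85 for *Lef1*, -0.90 for *Ctnnb1*, -1.05 for *Lrp6*, -1.25 for *Sfrp1* and -1.36 for *Tcf7l2*, with SEs between 1.14 and 1.57, and the adjusted p was between 0.992 and 0.999 in edgeR, which called 8 genes (0.0598%). Within the read limits *Dkk3* had a log2 fold change of 1.36 ± 0.52 (SE; edgeR unadjusted p = 0.0195, adjusted p = 0.674). The selected pair, given without a test, had no overlap here: *Nkd1* reached at most 6.65 TMM CPM in *Eed*-/- astrocytes and at least 42.2 in *Eed*-/- neurons, and *Sfrp5* was at 0 against at least 3.08 TMM CPM. No overlap in this direction was found for 11.4% of the 13367 genes, the pair was chosen for low values in *Eed*-/- astrocytes, and 3 reads in the 3 shallow libraries stand for 5.08, 8.86 and 9.27 TMM CPM, within or above the *Sfrp5* levels of *Eed*-/- neurons.

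Whether the effect of genotype differed between the cell types was asked with an interaction term in the same fit. The difference of the 2 log2 fold changes was -2.52 for *Lef1*, -2.52 for *Sfrp1*, -1.84 for *Dkk3*, -1.65 for *Tcf7l2*, -0.67 for *Ctnnb1*, -0.57 for *Tcf7l1*, 0.28 for *Lrp6* and 1.64 for *Axin2*, with SEs between 1.85 and 2.56. None passed the threshold in edgeR (adjusted p = 1.00 for each), beside 7 of 13367 genes (0.0524%), and the median over all genes was -0.79. Within the read limits *Sfrp1* had an interaction of -2.01 ± 0.88 (SE; edgeR unadjusted p = 0.0374, adjusted p = 1.00). The 3 comparisons in this fit share libraries with the genotype comparisons above.

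Levels of different genes were compared per kilobase of exon. In *Eed*+/+ astrocytes *Dkk3* (127 ± 66.3 TMM CPM per kilobase, SD, n = 5) and *Sfrp1* (113 ± 73.5) were the most abundant members, and their order changed between libraries. *Ctnnb1* followed at 31.2 ± 10.6, below *Sfrp1* in 5 of 5 libraries without overlap of the ranges. *Tcf7l2* (16.7 ± 11.3), *Sfrp5* (15.9 ± 10.4), *Nkd1* (12.8 ± 8.05), *Tcf7l1* (8.75 ± 8.93), *Axin2* (6.45 ± 5.16), *Lef1* (4.64 ± 3.51) and *Lrp6* (4.43 ± 2.64) came next with ranges that overlapped from each to the next. In *Eed*-/- neurons *Sfrp1*, *Dkk3* and *Ctnnb1* again led, at 104 ± 33.9, 72.5 ± 13.9 and 61.0 ± 23.2 TMM CPM per kilobase (SD, n = 3), and *Nkd1* was the fifth at 15.5 ± 5.44. In *Eed*-/- astrocytes the order ended with *Nkd1* at 0.425 ± 0.646 and *Sfrp5* at 0 (n = 5).

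Close relatives of the members were counted as well. *Nkd2*, the paralog of *Nkd1*, had a mean of 3.74 ± 4.55 TMM CPM (SD, n = 5) in *Eed*+/+ and 2.83 ± 6.33 in *Eed*-/- astrocytes, the latter from 1 library with 14 reads. *Frzb*, another Frizzled-related inhibitor, had 60 reads in *Eed*+/+ astrocytes and 0 in *Eed*-/- astrocytes, whereas *Sfrp2* had 139 and 198 reads and *Sfrp4* 101 and 73. So the low reads of *Sfrp5* in *Eed*-/- astrocytes were not a feature of all members of that family. *Dkk1* was detected in 1 of 5 *Eed*-/- astrocyte libraries (55 reads), 2 of 3 *Eed*-/- neuron libraries (10 reads) and no *Eed*+/+ library, *Dkk4* in none, and *Dkk2* in 3 of 5 *Eed*+/+ and 2 of 5 *Eed*-/- astrocyte libraries. *Lrp5*, the second co-receptor, had 23.1 ± 8.70 TMM CPM in *Eed*+/+ and 11.6 ± 17.5 in *Eed*-/- astrocytes, and *Jup*, the paralog of β-catenin, 74.8 ± 75.0 and 71.6 ± 89.0. *Axin1* had 10.5 ± 11.8 and 11.9 ± 26.7 TMM CPM and *Tcf7* 9.66 ± 10.6 and 5.94 ± 9.10 in the same groups.

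Of 90 further Wnt pathway genes, 45 could be tested in astrocytes and 63 in neurons, and edgeR called 0 in either comparison. In edgeR 0 in astrocytes and 6 in neurons had an unadjusted p under 0.05, beside 108 of 8956 and 862 of 11862 genes tested. DESeq2 and limma-voom called 0 in both. The median log2 fold change of the pathway genes was -0.52 in astrocytes, beside -0.54 over all genes tested, and -0.20 in neurons, beside 0.15. By role, the astrocyte medians were -0.06 for 5 ligand genes, -0.65 for 11 receptors, -0.92 for 6 secreted or membrane inhibitors, -0.24 for 11 cytoplasmic transducers, -0.82 for 10 nuclear factors and -0.99 for 2 targets. In neurons they were -0.52, -0.25, 0.13, -0.27, -0.20 and -0.09 for 7, 17, 10, 14, 11 and 4 genes of the same roles. Of the 68 pathway genes tested over all 15 libraries, edgeR called 0 between the cell types of either genotype and 0 for the interaction, while DESeq2 and limma-voom called 0 in each. At an unadjusted p under 0.05 in edgeR there were 5, 7 and 3, beside 306, 936 and 483 of all 13367 genes tested.

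**Figure D5:**
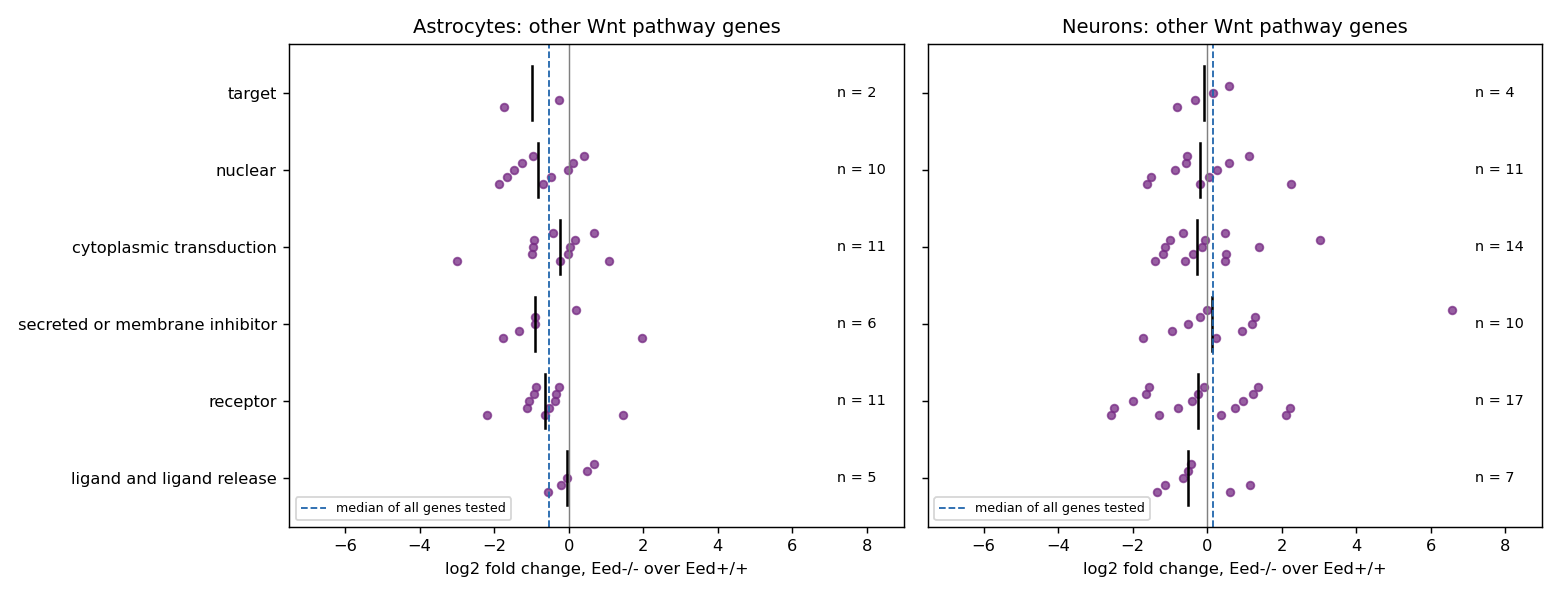
Log2 fold changes between *Eed*-/- and *Eed*+/+ cells (x axis) of the other Wnt pathway genes that could be tested, 1 point per gene, by role (y axis), with black bars at the median of a role and a dashed line at the median of all genes. Points of each role lie on both sides of 0 in neurons, and in astrocytes the medians of all 6 roles lie below 0, as does that of all genes (-0.54).

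The genes whose levels followed *Nkd1* most closely over the 15 labelled libraries were *Tsta3*, *Csf2ra* and *Pycrl* (Spearman's rho 0.940, 0.931 and 0.929, across 13366 genes searched with a median rho of 0.392). For *Sfrp5* they included *Lrfn4* and *Drc3* (0.925 and 0.916, median rho 0.305). The points share depth, since shallow libraries lack reads of many genes at once, and they include the astrocyte libraries on which both members were chosen.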

How the data were processed

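RNA from sorted GFP+/lacZ+ and GFP+/lacZ- cells was sequenced on an Illumina HiSeq, with 1 file per library. The authors aligned the reads with STAR to GRCm38 (mm10) and deposited whole-number read counts per gene for 53379 genes. The annotation is given only by reference to earlier work. The authors removed 5 of the 16 libraries from their own analysis, which the sources used here do not name. The column of unstranded counts was used, since the strand columns held 46.7% to 52.7% of counts on the first strand; reads of overlapping genes on opposite strands thus cannot be told apart. The 4 lines of totals per file were left out (reads in no gene made up 8.55% to 71.6% and ambiguous reads 0.934% to 5.66%).

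Counts were scaled by TMM and tested with edgeR 4.0.16 (filterByExpr, robust quasi-likelihood F-test, two-sided, Benjamini-Hochberg over all genes tested) in R 4.3.3. The SE is the log2 fold change divided by the square root of F. Gene locations and exon lengths came from GENCODE M21 (53274 identifiers matched, 105 did not). DESeq2 1.42.0, limma-voom 3.58.1 with sample weights, RLE size factors, no filter, a mean count above 10, libraries within the read limits, each library left out, the replicate block, the run of library numbers in the file names and a joint fit of 15 libraries were alternatives. DESeq2 on the libraries within the limits and the read ratios of *Nkd1* and *Sfrp5* were added after seeing the data. The procedure was tested on simulated data. Their spread between libraries was set below that measured here, so they do not show what changes these comparisons could detect.

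Precision depends on depth, from 211736 to 3178529 gene counts per labelled library; 3 reads per library serve as the floor. Of the samples, 15 were grouped by the labels, and 1 library whose title and cell type label disagree entered no comparison. No source says which animals gave both a neuron and an astrocyte library, and p-values measure the spread between libraries. The members, the pathway genes and the marker lists were chosen with earlier results of these data known. Named are all 10 members, 11 paralogs by level, pathway genes past an adjusted p of 0.05 (at most 4 per direction) and the 3 genes most like *Nkd1* and *Sfrp5* by Spearman's rho of TMM CPM. One gene named by this last rule is not reported here. The exact permutation test planned for members below the filter was not needed in the main fits, since every member open to a test passed it there. In neurons *Sfrp5* was fitted in 12 of the 15 fits, since it fell below the filter when certain single libraries were left out.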

Additional observations from a re-analysis of the deposited data

Results flagged for a closer look

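In 19 groups of 5 astrocyte libraries, 1 per member and genotype, a library was marked when its gap to the nearest other library exceeded 0.71 of the group's range. For independent, normally distributed values this marks about 1 in 20 groups. The levels here were not on a log scale, include libraries without a read and share libraries between groups, so that rate need not hold. By this rule 3 were marked. *Sfrp1* stood at 1048 TMM CPM in *Eed*+/+ astrocyte replicate 4, next to 453 in the nearest library. *Dkk3* stood at 1006 TMM CPM in *Eed*-/- astrocyte replicate 2, next to 241. *Axin2* stood at 252 TMM CPM in *Eed*-/- astrocyte replicate 1, next to 37.4.

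A library that the labels give no clear group, titled as an *Eed*-/- astrocyte but with the cell type of a neuron, held 327 *Nkd1* reads, or 1477 CPM without TMM scaling. The highest *Eed*+/+ library held 79.0 CPM on that scale. *Eed*-/- neuron replicate 1 had a higher share than that, with 111 *Nkd1* reads among 1256686 gene reads.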

How the results depend on the processing

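Another tool, scaling, filter or covariate, or the libraries within the limits, called 0 members in each comparison (edgeR, DESeq2 and limma-voom; 0 in edgeR at an unadjusted p under 0.05 over all libraries). Leaving out each library in turn gave 0 to 2 called members in neurons and 0 elsewhere, and 0 to 12 pathway genes in neurons. The 2 and 12 came without *Eed*+/+ replicate 1, where edgeR called 20.6% of all 12635 genes tested. That fit sets the *Eed*-/- libraries against the shallow control alone, and whether pathway genes exceeded that share was not tested. With DESeq2 within the limits, 1 pathway gene was called between the cell types in *Eed*+/+ (*Ctnnbip1*) with a log2 fold change of 1.81, beside 0.145% of all genes, and 1 in *Eed*-/- cells (*Tle3*) with -2.69, beside 0.519%, both named after their values were seen. The ratio of *Nkd1* shares ranged from 17.0 to 42.5 and the bound for *Sfrp5* from 4.48 to 6.69 when single libraries were left out, and the latter was 15.03 within the limits. RLE scaling moved the median of all genes in astrocytes from -0.54 to -0.37, without turning a member there.

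Between groups, libraries of the same replicate number correlated at -0.25 to 0.16 and those of different numbers at -0.27 to 0.27. These values are deviations from the mean of each small group, so they cannot show whether replicate numbers pair the libraries. With the replicate block 0 members were called in any comparison, and the sign turned for *Ctnnb1* (-0.89) and *Axin2* (-0.74) in astrocytes, *Ctnnb1* (0.95) and *Axin2* (0.26) between *Eed*+/+ cell types, *Dkk3* (-0.91) and *Axin2* (-0.14) between *Eed*-/- cell types, and *Lrp6* (-3.93) and *Axin2* (-0.40) in the interaction.

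The sign of log2 fold changes, none of them called, also turned as follows. Within the limits, edgeR and then DESeq2 gave in astrocytes *Dkk3* 0.31 and 0.34, *Lrp6* 0.35 and 0.39, *Axin2* -0.71 and -0.67, and *Tcf7l1* 0.53 and 0.59; in neurons *Ctnnb1* -0.21 and -0.21; between *Eed*+/+ cell types *Axin2* 0.32 and 0.37 and *Tcf7l1* -0.13 and -0.10; between *Eed*-/- cell types *Lrp6* 0.24 and 0.27, *Ctnnb1* 0.092 and 0.12, *Axin2* -0.15 and -0.12, and *Tcf7l1* 1.09 and 1.12; in the interaction *Ctnnb1* 1.21 and 1.20, *Axin2* -0.47 and -0.48, and *Tcf7l1* 1.21 and 1.22. In limma-voom *Axin2* was -1.10 in astrocytes, -0.71 between *Eed*-/- cell types and -0.50 in the interaction, *Ctnnb1* 0.61 between *Eed*+/+ cell types, *Dkk3* -1.13 between *Eed*-/- cell types and *Lrp6* -0.47 in the interaction. *Tcf7l1* in neurons, near 0, was 0.075 in DESeq2, 0.050 with RLE, 0.13 in the joint fit and 0.0085 without a filter. With the run of library numbers, *Axin2* was 0.36 between *Eed*+/+ and *Tcf7l1* 0.048 between *Eed*-/- cell types.

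Leaving out single libraries turned the sign within these ranges: in astrocytes *Ctnnb1* -0.28 to 0.41, *Axin2* -1.31 to 1.38 and *Tcf7l1* -1.06 to 0.12; in neurons *Ctnnb1* -0.21 to 3.93 and *Tcf7l1* -0.67 to 2.07; between *Eed*+/+ cell types *Ctnnb1* -1.16 to 3.12, *Axin2* -1.06 to 0.046, *Tcf7l1* -0.41 to 2.46 and *Tcf7l2* -0.26 to 1.24; between *Eed*-/- cell types *Dkk3* -1.27 to 0.56, *Axin2* -1.05 to 1.77 and *Tcf7l1* -0.87 to 0.15; in the interaction *Lrp6* -0.88 to 0.79, *Ctnnb1* -4.04 to 0.24, *Axin2* -0.54 to 2.35 and *Tcf7l1* -2.67 to 0.20. The cause was not tested. The shallow *Eed*-/- astrocyte libraries limit what could be detected there.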

Other observations

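In the library without a clear group, which had 221456 gene reads and 2397 genes detected, *Ctnnb1* had 67 reads, *Dkk3* 13 and *Tcf7l2* 1. The other 6 members besides *Nkd1* (*Sfrp1*, *Sfrp5*, *Lrp6*, *Axin2*, *Lef1* and *Tcf7l1*) had 0 reads, which at this depth allows up to 13.5 CPM each. The same library had astrocyte markers at 39692 CPM and neuron markers at 244 CPM.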
